A study of Mus musculus with 4 samples.

Results

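The layer 4 spots are the 520 array spots, 130 in each of 4 coronal brain sections, with the highest mean level of 6 layer 4 genes (Kcnh5, Tnnc1, Adam33, Rorb, Krt12 and Ovol2), out of 13452 spots kept and 13470 spots under tissue in all. For each spot with at least 500 unique molecular identifiers (UMIs) and 250 genes, the score was the mean over the 6 genes of the natural logarithm of 1 plus the UMIs per 10000 UMIs of the spot, and the 130 spots with the highest score were taken in every section. The levels of the 6 genes therefore chose the spots and are given as a description. The sections came from male wild-type C57BL/6J pups at postnatal day 21, whose mothers were fed 2 mg/kg folic acid (FA; MF group, 2 sections) or 20 mg/kg FA (HF group, 2 sections) from 2 weeks before mating until the end of lactation. Within a group the sections are of separate biological replicates, and both groups share the strain, sex, age and feeding period. Visium-FFPE hybridises probe pairs to the RNA of a fixed section on an array of barcoded spots, so that a spot is an area of tissue with several cells rather than 1 cell.

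Layer 4 is the layer of sensory neocortex in which most axons of the relay thalamus end, and its small excitatory neurons pass the signal on to layers 2-3. These neurons are known for the nuclear receptor Rorb, which takes part in shaping layer 4 and its barrels, and they lie between the intratelencephalic neurons of layers 2-3 and the large subcerebral projection neurons of layer 5. Sensory input and neuronal firing switch on immediate early genes such as Egr1, Arc and Fos within minutes, and many of these encode transcription factors.

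The 130 layer 4 spots made up between 3.61% and 4.07% of the kept spots of a section and held 3682486 and 1346557 UMIs in the MF replicates 1 and 2 and 1229960 and 1474313 UMIs in the HF replicates 1 and 2. MF replicate 1 was the deepest section, with a median of 28374 UMIs per layer 4 spot, against 9851.5, 8747.5 and 11047 in the other sections in the same order. The median score of the layer 4 spots lay between 0.684 and 0.702 in the 4 sections, and that of the other spots between 0.143 and 0.182. The cut fell on a slope: the lowest score inside was 0.588, 0.561, 0.542 and 0.558 in MF replicates 1 and 2 and HF replicates 1 and 2, and the next score outside was 0.588, 0.560, 0.540 and 0.556. At least 5 of the 6 genes had a UMI in 102 layer 4 spots of the deep MF replicate 1, but in 27, 22 and 38 spots of the other sections, so that membership rests on fewer genes where depth is lower. The sections share 2472 array barcodes by design of the array, which does not mean shared tissue.

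The layer 4 spots formed a band under the surface of the cortex, although position took no part in their choice. Their median distance to the edge of the tissue was 5 spot spacings in MF replicate 1 and 4.58 in each of the other 3 sections. For comparison, 130 further spots per section were chosen by each of 3 scores made in the same way from other layer genes, without reuse of a spot. The genes for layers 2-3 were Cux2, Stard8, Otof, Rasgrf2, Ddit4l and Nectin3. Those for layer 5 were Deptor, Qrfpr, Parm1, Fezf2 and Bcl6, and those for layer 6 were Rprm, Syt6, Hs3st4, Osr1, Tle4 and Sla. Spots of layers 2-3 had a median distance of 2.65 in each section, spots of layer 5 had 6.25, 6.04, 6.93 and 6.93, and spots of layer 6 had 10.4, 8.89, 9.54 and 10.5, so the layer 4 spots lay between layers 2-3 and layer 5 in all 4 sections. The distances could be measured for 105, 102, 130 and 126 of the 130 layer 4 spots, since the others faced the border of the array.

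**Figure D1:**
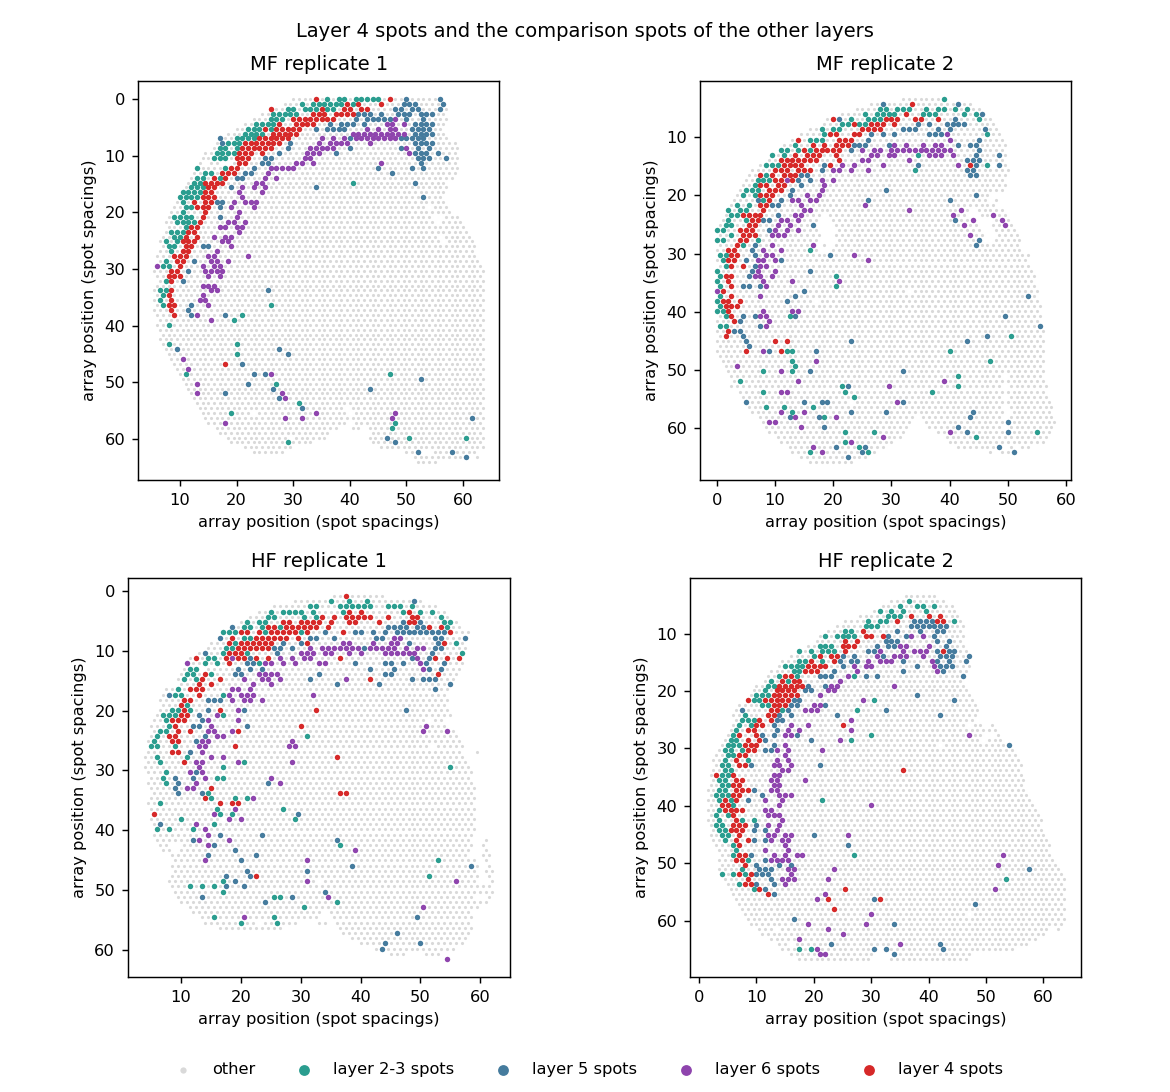
Map of the 4 sections, with each kept spot at its place on the array (both axes in spot spacings), layer 4 spots in red and the spots chosen for layers 2-3, 5 and 6 in other colours. The red band runs between the layer 2-3 and layer 5 spots and is most continuous in MF replicate 1, where 114 of the 130 spots form 1 patch, while HF replicate 1 has 33 isolated red spots.

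The band was less complete in some sections than in others. Of the 6 positions around a layer 4 spot, on average 3.45, 2.71, 2.20 and 2.58 were layer 4 spots in MF replicates 1 and 2 and HF replicates 1 and 2, against 0.0934 to 0.159 around the other spots. The largest connected patch held 114 and 97 spots in the MF sections and 48 and 32 spots in the HF sections. Spots with no layer 4 neighbour numbered 6, 15, 33 and 19.

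Spots inside the band and scattered spots differed in genes that the score did not use. Fewer than 2 layer 4 neighbours were found for 11 and 31 layer 4 spots of the MF replicates 1 and 2 and for 53 and 32 of the HF replicates 1 and 2. The summed level of 12 further layer 4 genes was 1120, 1136, 1228 and 973 CPM (UMIs of a gene per 1000000 UMIs of the same spots) in the spots with at least 2 such neighbours, and 516, 613, 651 and 566 CPM in the scattered ones. In every section the 9 layer 5 genes of the list went the other way, with 207, 168, 199 and 264 CPM in the band and 312, 267, 413 and 489 CPM in the scattered spots. Genes of the relay thalamus summed to 529, 442, 436 and 426 CPM in the band and to 458, 484, 927 and 584 CPM in the scattered spots, so that the difference was widest in HF replicate 1 and turned the other way in MF replicate 1. Myelin genes summed to 10635, 11118, 8868 and 6618 CPM in the band and to 9623, 11142, 13491 and 9372 CPM in the scattered spots. These sums were higher in the scattered spots of both HF sections, nearly equal in MF replicate 2 and lower in MF replicate 1. The scattered spots were kept in all counts unless stated otherwise.

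The 6 genes of the score peaked in the layer 4 spots of every section. Rorb had 188, 213, 207 and 160 CPM in the layer 4 spots of MF replicates 1 and 2 and HF replicates 1 and 2, and 45.3, 45.4, 47.5 and 41.3 CPM in the other spots. Its mean of 192 ± 23.9 CPM (SD, n = 4) stood against 36.7 CPM in layer 2-3 spots, 30.6 in layer 5 spots and 27.6 in layer 6 spots. All 4 layer 4 values of Rorb lay above all values of the other spots, which is what the rule asks for. Kcnh5, a voltage-gated potassium channel of the EAG family, had 432 ± 35.8 CPM, with 174 CPM in layers 2-3 and 94.1 CPM in layer 5. Adam33, a membrane-bound metalloprotease, had 39.8 ± 3.62 CPM against 2.99 CPM in the other spots, a mean log2 ratio of 3.35. Tnnc1, the slow and cardiac form of troponin C, had 95.0 ± 17.1 CPM, with 42.6 CPM in layers 2-3 and 14.5 CPM in layer 5. Krt12, a keratin, had 99.1 ± 7.48 CPM and Ovol2, a zinc finger transcription factor, 57.3 ± 8.47 CPM, against 17.1 and 8.44 CPM in the other spots. The genes lie on separate parts of the GRCm38 genome: Kcnh5 on chromosome 12 from 74897220 to 75177332, Rorb on chromosome 19 from 18930605 to 19111196, Tnnc1 on chromosome 14 from 31208312 to 31211729, Krt12 on chromosome 11 from 99415666 to 99422259, and Adam33 and Ovol2 on chromosome 2 from 131050591 to 131063814 and from 144305175 to 144332146.

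The share of spots with a UMI differed between sections. Kcnh5 was counted in 99.2%, 99.2%, 96.2% and 99.2% of the layer 4 spots and in 74.4%, 56.5%, 51.3% and 52.1% of the others, and Adam33 in 56.9%, 32.3%, 26.9% and 31.5% of the layer 4 spots and in 7.06%, 3.64%, 3.26% and 3.58% of the others. Except for Kcnh5 in layer 4 spots, where 3 sections tied, the highest share stood in MF replicate 1, the deepest section, so shares were not compared between diets. Kcnh5 had a deposited Moran's I, a score of how far neighbouring spots resemble each other, of 0.306, 0.231, 0.227 and 0.270, placing it between ranks 376 and 510 of at least 16731 features per section.

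**Figure D2:**
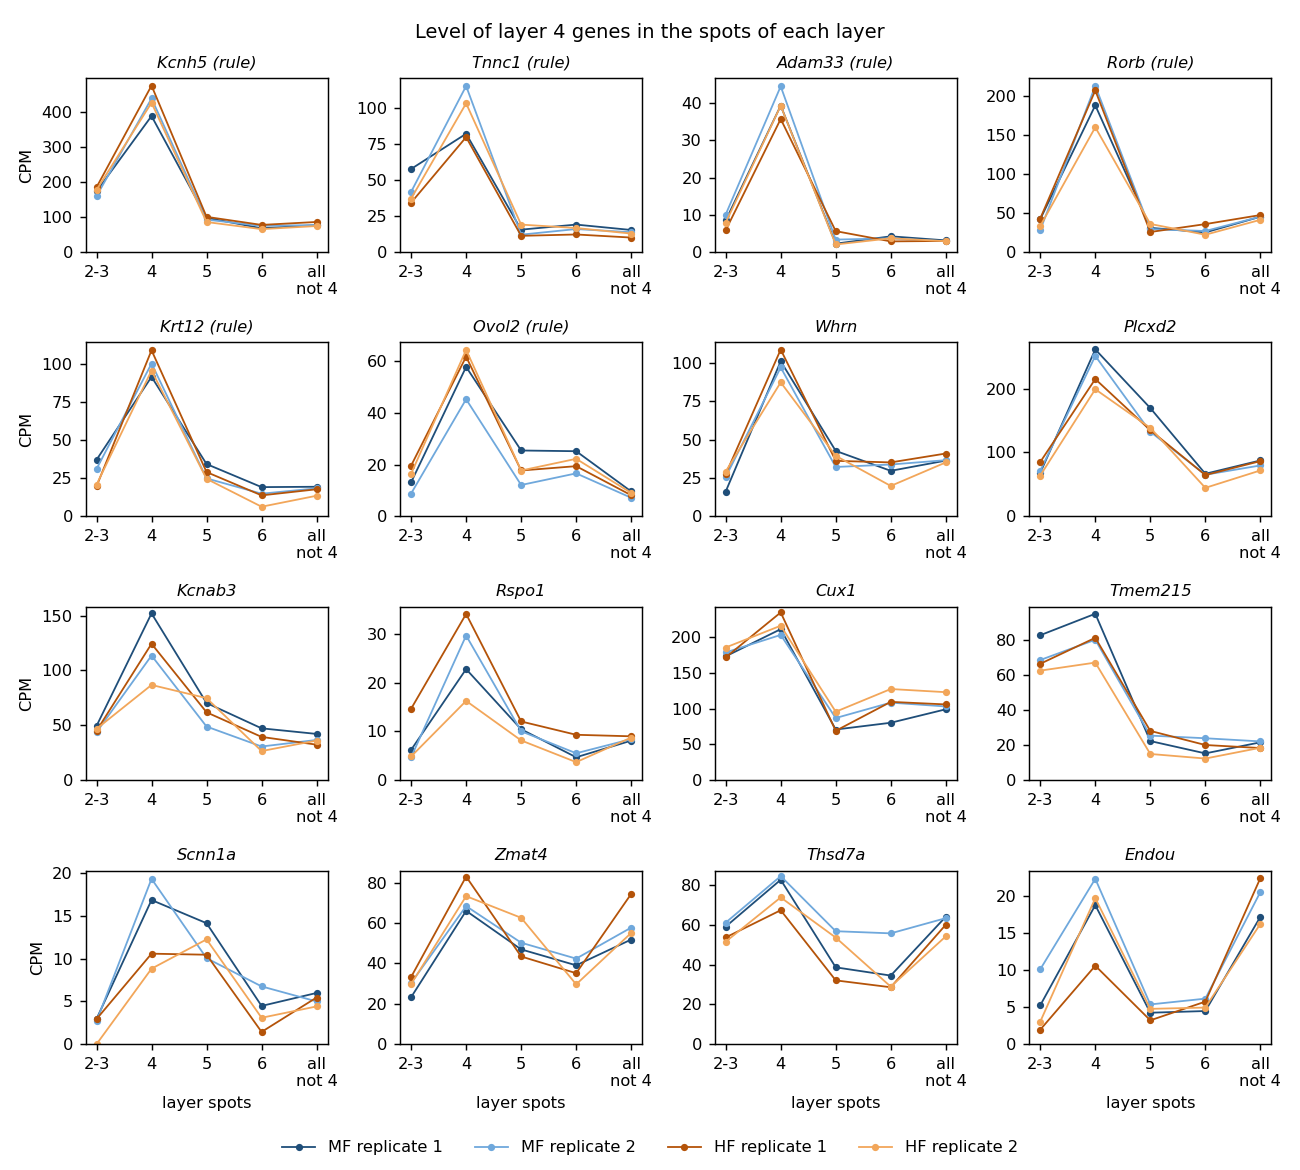
Level in CPM (linear axes from 0) of the 6 genes of the score, marked as rule, and of 10 further layer 4 genes in the spots of layers 2-3, 4, 5 and 6 and in all spots outside layer 4, with 1 line per section. Rorb and Whrn peak sharply at layer 4, Cux1 and Tmem215 stay high in layers 2-3, and Endou is as high in all spots outside layer 4 as in layer 4.

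Other layer 4 genes were also high. Of 12 genes of a second layer 4 list, 11 had at least 5 CPM in the layer 4 spots, and 10 of these stood above the other spots in 4 of 4 sections, where 20.2% of all 11043 features at that level did so. Against layers 2-3 and layer 5 together 10 of 11 were higher in 4 of 4 sections, where 12.7% of all features were. Whrn, a scaffold protein known from hair cells and nerve fibres, had 101, 97.3, 109 and 87.5 CPM in the layer 4 spots and between 35.1 and 40.9 CPM in the other spots, without overlap. It was the gene outside the score with the highest ratio over layers 2-3 and 5, a mean log2 ratio of 1.64, with 24.5 CPM in layers 2-3 and 37.6 CPM in layer 5. Plcxd2 had 232 ± 29.6 CPM against 72.1 and 144 CPM in those layers, and Kcnab3, a beta subunit of voltage-gated potassium channels, 119 ± 27.0 CPM against 46.2 and 64.0 CPM. Scnn1a, a subunit of the epithelial sodium channel whose promoter is used to drive Cre in layer 4, had 13.9 ± 4.99 CPM, with 2.14 CPM in layers 2-3 and 11.7 CPM in layer 5, so that it hardly separated layers 4 and 5. Cux1, a homeodomain factor of the upper layers, had 217 ± 13.4 CPM, with 178 CPM in layers 2-3 and 80.7 CPM in layer 5. Rspo1, which encodes the Wnt agonist R-spondin 1, had 25.7 ± 7.84 CPM. The exceptions were Endou, with 17.8 CPM in layer 4 spots and 19.1 CPM in the other spots, and Hsd11b1, the enzyme that regenerates active glucocorticoid, with 35.7 CPM in layer 4 and 55.6 CPM in layer 5.

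Against the other spots, genes of the neighbouring layers placed the spots on the side of layers 2-3. Of 9 layer 2-3 genes with at least 5 CPM, 8 stood above the other spots in 4 of 4 sections, where 20.2% of all features did. The genes named here were lower than in the layer 2-3 spots, which they helped choose. Cux2, a homeodomain factor of the upper layers, had 114 CPM in layer 4 spots and 172 CPM in layer 2-3 spots, Rasgrf2 had 130 and 225 CPM, and Stard8, a GTPase-activating protein, 40.5 and 98.8 CPM. All 7 layer 5 genes at that level were below layers 2-3 and 5 in 4 of 4 sections, where 19.3% of all features were. Fezf2, Bcl6 and Parm1 among them helped choose the layer 5 spots, so their place in this count was largely set by that choice. Against the other spots, 5 of the layer 5 genes were lower in 4 of 4 sections, where 34.8% of all features were. Fezf2, the factor that specifies subcerebral projection neurons, had 26.3 CPM in layer 4 spots and 192 CPM in layer 5 spots, and Bcl6, a transcriptional repressor, had 27.2 and 146 CPM. Rprm had 36.8 CPM against 260 CPM in layer 6, and Syt6 had 6.12 CPM against 90.6 CPM, but both genes helped choose the layer 6 spots.

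Markers of the relay thalamus and of myelin were lower than in the other spots, while those of the hippocampus and striatum were mixed. All 9 relay thalamus genes with at least 5 CPM were lower than in the other spots in 4 of 4 sections, where 34.8% of all features were. Prkcd had 73.5 CPM against 315 CPM and Tcf7l2 had 15.7 CPM against 90.3 CPM in the other spots. Of 6 hippocampus and striatum genes at that level, 3 were lower and 1 was higher than in the other spots in 4 of 4 sections. The shares of all features were 34.8% and 20.2%. All 22 myelin genes were lower than in the other spots in 4 of 4 sections, and 17 of 22 were lower than in layers 2-3 and 5 as a pool, where 19.3% of all features were. Their sums were 10559, 11124, 10570 and 7245 CPM in the layer 4 spots of the 4 sections and close to those of the layer 2-3 spots, 10002, 12790, 10847 and 7265 CPM, while the layer 5 spots had 13538 to 20095 CPM. Pvalb, the calcium buffer of fast-spiking inhibitory neurons, had 286, 263, 259 and 290 CPM in the layer 4 spots, with means of 155 CPM in layers 2-3 and 248 CPM in layer 5. Gad2, which makes GABA, had 171 CPM in layer 4 spots and 231 and 228 CPM in those layers.

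Among features with at least 20 CPM in the layer 4 spots of every section, the 15 highest ratios over the other spots belonged to the 6 genes of the score and 9 further genes. Tcap, a sarcomeric cap protein, had 23.4, 30.4, 25.2 and 38.0 CPM in the layer 4 spots and at most 4.87 CPM in the other spots, a mean log2 ratio of 2.56. Exph5, a regulator of vesicle traffic, followed with 54.4 ± 15.3 CPM, and its 4 sections spread from 34.6 to 71.5 CPM. Hkdc1, a hexokinase, and Ddit4l, an inhibitor of mTORC1, had mean log2 ratios of 2.16 and 2.10. Ddit4l was higher still in layer 2-3 spots, which it helped choose, with 68.2 CPM against 56.9 CPM. Boc, a receptor for Sonic hedgehog, had 54.6 ± 9.41 CPM, with 23.6 CPM in layers 2-3 and 20.5 CPM in layer 5. Crhr1, the receptor of corticotropin-releasing hormone, had 99.8 ± 13.6 CPM, with 67.6 and 51.1 CPM. Dkkl1, Tuba8 and Tmem215 had mean log2 ratios of 1.75, 1.84 and 1.95. Against layers 2-3 and 5 alone, Cpne9, a copine that binds calcium and phospholipids, was among the leading genes with 184 ± 15.03 CPM against 97.2 and 47.5 CPM.

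Among the lowest genes against the other spots were Dlk1, which the paper names for the hypothalamus, and Zic1, a gene of the relay thalamus list. Dlk1 had 5.48 CPM in layer 4 spots and 55.6 CPM in the other spots, Baiap3 had 15.4 and 122 CPM, and Nnat, an imprinted proteolipid, 95.2 and 540.1 CPM. Against layers 2-3 and 5, Grp, the gastrin-releasing peptide, had 10.6 CPM in layer 4 and 34.1 and 31.2 CPM in those layers, and Ccn3 had 136 CPM against 389 and 242 CPM. Both were lower in layer 4 than in each neighbour.

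Receptor and channel genes showed a mixed profile. Of 16 genes of excitatory transmission 11 were above the other spots in 4 of 4 sections and 7 were above layers 2-3 and 5. For 30 potassium channel genes the counts were 16 and 10, and the shares of all features were 20.2% and 12.7%. Kcnh5, a gene of the score, is among these channel genes, so its place in both counts was largely set by the rule. Grm2, a presynaptic metabotropic glutamate receptor, had 127, 128, 129 and 130.2 CPM in the layer 4 spots, an SD of 1.22 CPM, with 40.9 CPM in layers 2-3 and 57.2 CPM in layer 5. Kcnip2, which modulates the A-type potassium current, had 342 ± 18.9 CPM against 236 and 155 CPM. Gria1 and Gria3, subunits of the AMPA receptor, had 277 and 251 CPM in layer 4 and 373 and 424 CPM in layers 2-3. Gabra5 had 97.4 CPM against 165 CPM in layer 5. Genes of folate and one-carbon metabolism gave a count close to that of all features, with 3 of 20 above the other spots in 4 of 4 sections.

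For the question of what the maternal diet changed in layer 4, UMIs were summed over the 130 layer 4 spots of each section, and edgeR's quasi-likelihood test set the 2 HF sums against the 2 MF sums. Called genes are those that changed at least 1.2-fold with a p-value under 0.05 after Benjamini-Hochberg adjustment over the 10603 features tested. There were 16 called genes (0.151%), of which 12 (0.113%) were higher and 4 (0.0377%) lower in HF, and 687 features (6.48%) stayed under 0.05 before adjustment, 3.29% of all in the higher and 3.19% in the lower direction. Of all features tested, 17.6% had both HF sections above both MF sections and 17.8% below, so lack of overlap is common. Without HF replicate 1 the number of calls was 171, of which 14 were among the 16, and DESeq2 called Egr1 and Nr4a3 alone. In these sums, fewer cells of a type and less RNA per cell cannot be told apart, and 2 sections against 2 allow no exact test below p = 0.333. The levels below are CPM after TMM scaling over the tested genes.

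Of the 12 higher genes, 8 were immediate early genes or rapid response genes. Egr1, a zinc finger transcription factor, had 107 and 117 CPM in the MF sections and 432 and 839 CPM in the HF sections. Both HF sections lay far above both MF sections, and HF replicate 2 was well above HF replicate 1. The log2 fold change was 2.53 (SE 0.18, edgeR adjusted p = 5.57e-10), or 5.78-fold. Nr4a3, an orphan nuclear receptor, had 15.8 and 16.5 CPM in MF and 42.5 and 59.9 CPM in HF (log2 fold change 1.69, SE 0.23, edgeR adjusted p = 0.000255). Arc, a synaptic protein that drives AMPA receptor endocytosis, had 54.1 and 29.2 CPM in MF and 218 and 79.9 CPM in HF (1.67, SE 0.27, edgeR adjusted p = 0.00253). Arc thus also differed widely between the HF sections, and the order of those sections was the reverse of that for Egr1 and Nr4a3.

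Nr4a1, another member of the Nr4a family, had 50.8 and 40.5 CPM in MF and 128 and 79.9 CPM in HF (log2 fold change 1.11, SE 0.18, edgeR adjusted p = 0.00288). Dusp6, the phosphatase that switches off ERK, had 63.6 and 52.4 CPM in MF and 137 and 97.8 CPM in HF (0.96, SE 0.16, edgeR adjusted p = 0.00321). Junb, an AP-1 subunit, had 31.9 and 22.5 CPM in MF and 89.2 and 47.5 CPM in HF (1.21, SE 0.23, edgeR adjusted p = 0.0128). HF replicate 1 was the higher HF section for these 3 genes, as for Arc. Dusp1, a MAP kinase phosphatase, had 14.5 and 18.0 CPM in MF and 45.0 and 28.9 CPM in HF (1.23, adjusted p = 0.0378 in edgeR). Bhlhe40, a repressor shared by the activity response and the circadian clock, had 124 and 122 CPM in MF and 169 and 205 CPM in HF (0.60, SE 0.12, edgeR adjusted p = 0.0290). None of these 8 genes overlapped between the diets in its section values. Over all features tested, 17.6% had both HF sections above both MF sections. The same sections gave the calls, so the lack of overlap adds no support to them. Egr1, Nr4a3, Arc, Nr4a1 and Dusp6 stayed called whichever section was left out. The log2 fold change of Arc was 0.78 without HF replicate 1 and 2.33 without MF replicate 1. Junb was not called without HF replicate 1 (log2 fold change 0.70), Dusp1 was not called without MF replicate 1 (1.02) or HF replicate 1 (0.90), and Bhlhe40 was called with HF replicate 1 left out but not without any other section (0.45 to 0.62).

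**Figure D3:**
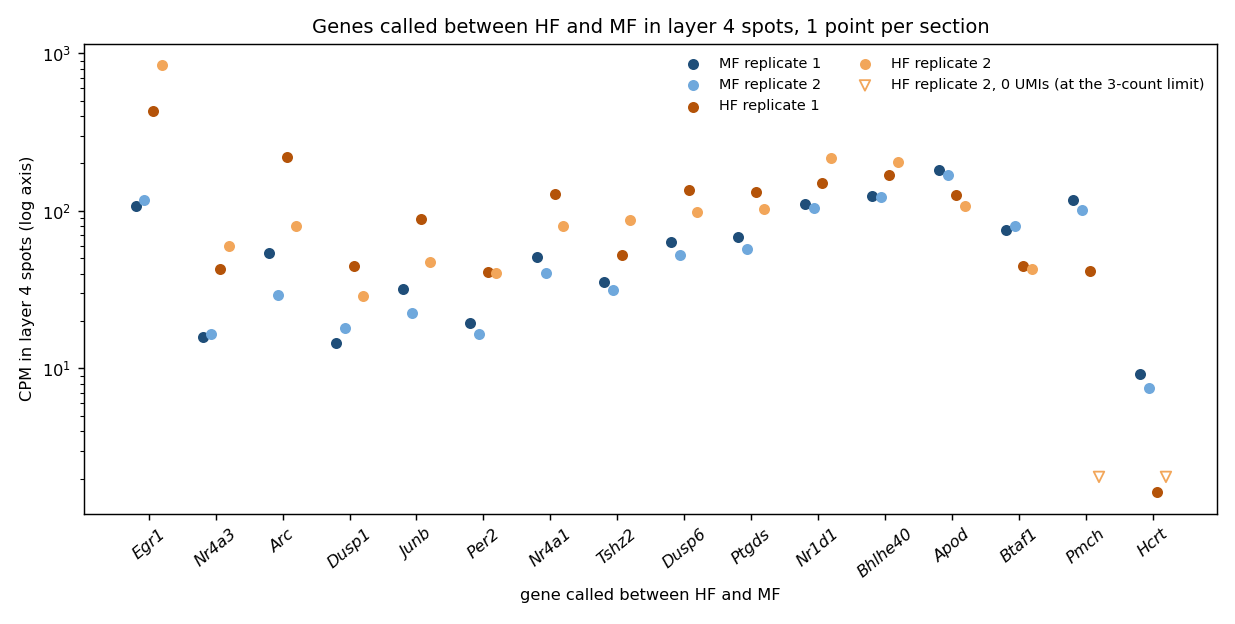
Level in CPM (log axis) of the 16 genes called between HF and MF in layer 4 spots, with 1 point per section; open triangles mark sections with 0 UMIs, drawn at the limit that 3 counts set. Egr1 has the widest gap among the higher genes, and Pmch and Hcrt have no UMI in HF replicate 2.

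Within the sections, the difference in Egr1 was spread over the layer 4 spots. The median over the 130 spots was 1.03 and 1.04 Egr1 UMIs per 10000 UMIs in MF replicates 1 and 2, and 3.81 and 7.78 in HF replicates 1 and 2. The 10th percentile in HF replicate 2 was 4.45, above the 90th percentiles of 2.01 and 2.46 in the MF sections, whereas in HF replicate 1 it was 1.23. Spots of 1 section are not replicates, so these values describe the sections and carry no test.

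**Figure D4:**
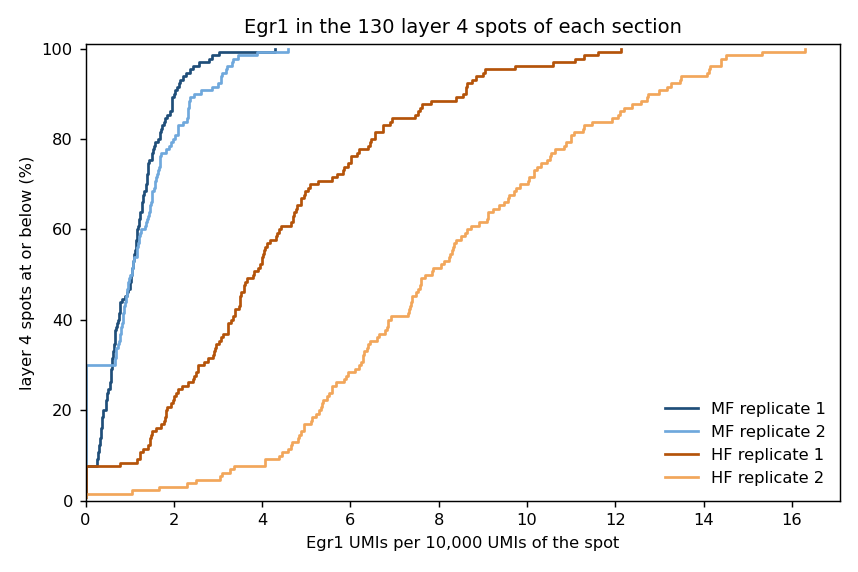
Cumulative share (%) of the 130 layer 4 spots of each section against their Egr1 UMIs per 10000 UMIs of the spot. The curves of the MF sections nearly coincide, with medians of 1.03 and 1.04, and those of HF replicates 1 and 2 lie to their right, with medians of 3.81 and 7.78.

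The list of immediate early genes as a whole leaned to higher values in HF. Of 22 genes tested out of 24 listed, 8 were called higher, where 0.113% of all features were, and none lower. A log2 fold change above 0 was found for 20, where 49.7% of all features had one. Before adjustment 13 were under 0.05, where 6.48% of all features were, and 12 of them were higher in HF, where 3.29% were. The median log2 fold change was 0.73, against -0.00 over all features tested, and the summed level was 1451 and 1403 CPM in MF and 2376 and 2463 CPM in HF. The direction was not shared by every member. Fos, the classical AP-1 subunit, had 7.10 and 9.74 CPM in MF and 22.1 and 17.9 CPM in HF, with few UMIs per section (log2 fold change 1.33, edgeR adjusted p = 0.136). Egr4 had 45.9 and 45.7 CPM in MF and 68.7 and 80.5 CPM in HF (0.71, adjusted p = 0.0774 in edgeR). In the spots with at least 2 layer 4 neighbours Egr4 (0.78) and Egr2 (2.48) were called higher as well, each with an edgeR adjusted p of 0.0431. Egr3, of the same family as Egr1, had 112 and 104 CPM in MF and 102 and 75.7 CPM in HF (-0.31, edgeR adjusted p = 0.743), and Jund and Fosl2 had log2 fold changes of -0.03 and 0.01. Npas4 and Atf3 had too few UMIs to be tested. No call was made, where 0.151% of all features were called, among 21 genes of the later, effector part of the activity response. Their median log2 fold change was 0.05, with Bdnf, a neurotrophin, at 52.4 and 49.5 CPM in MF and 77.7 and 63.3 CPM in HF (edgeR adjusted p = 0.615) and Homer1, a scaffold of the postsynaptic density, at -0.00.

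The promoters of the called immediate early genes are shown because this class is known to carry cAMP response elements, the sites of the factor CREB. The half-site TGACG was searched on both strands in the 250 bases before the start of each RefSeq gene model (GRCm38.p6), where the full palindrome TGACGTCA contains it on each strand. The motif was chosen with the called genes known. Counted by gene, it is held by at least 1 promoter of 19.8% of all 27025 genes in the table, by 13 of 18 genes of the list that have a promoter in the table (72.2%) and by 5 of 12 called genes that have one (41.7%). Among the 5 of those 12 that are immediate early genes, Nr4a3, Nr4a1, Junb and Dusp1 hold it and Dusp6 does not. Called genes with no entry in the table were Egr1, Arc, Bhlhe40 and Per2. The promoters follow 5′ to 3′ on the strand of the gene, with TGACG or its complement CGTCA in capitals. Nr4a3 has 4 such sites at chr4:48045055-48045304 on the + strand, Nr4a1 has 4 at chr15:101266596-101266845 on the + strand, Junb has 1 at chr8:84978749-84978998 on the - strand, and Dusp1 has 3 at chr17:26508473-26508722 on the - strand, of which 2 belong to a full TGACGTCA, a sequence that 1.55% of all promoters hold.
Nr4a3: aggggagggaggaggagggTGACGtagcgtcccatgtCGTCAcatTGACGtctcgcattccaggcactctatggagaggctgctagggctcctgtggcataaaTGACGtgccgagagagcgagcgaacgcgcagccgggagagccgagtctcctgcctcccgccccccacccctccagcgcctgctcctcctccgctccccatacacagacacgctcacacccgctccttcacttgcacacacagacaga
Nr4a1: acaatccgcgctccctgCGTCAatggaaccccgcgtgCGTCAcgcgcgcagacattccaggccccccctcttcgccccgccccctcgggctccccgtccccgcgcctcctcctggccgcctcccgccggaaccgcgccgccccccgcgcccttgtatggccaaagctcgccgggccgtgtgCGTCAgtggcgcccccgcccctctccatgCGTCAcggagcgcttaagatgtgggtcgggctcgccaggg
Junb: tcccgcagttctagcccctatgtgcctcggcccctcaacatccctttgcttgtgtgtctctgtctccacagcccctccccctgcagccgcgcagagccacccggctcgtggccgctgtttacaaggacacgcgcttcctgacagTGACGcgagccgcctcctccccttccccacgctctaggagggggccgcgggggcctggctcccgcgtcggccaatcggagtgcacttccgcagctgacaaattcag
Dusp1: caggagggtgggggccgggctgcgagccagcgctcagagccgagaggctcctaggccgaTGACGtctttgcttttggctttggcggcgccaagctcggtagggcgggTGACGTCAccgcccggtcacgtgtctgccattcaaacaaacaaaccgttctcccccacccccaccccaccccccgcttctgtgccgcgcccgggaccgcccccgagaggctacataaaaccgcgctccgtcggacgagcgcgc
A match shows only that the letters are present in this window. The other holder among the called genes was Btaf1, which was lower in HF.

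The clock genes Per2 and Nr1d1 were called higher in HF. Per2, a repressor of the circadian loop, had 19.4 and 16.5 CPM in MF and 40.9 and 40.6 CPM in HF (log2 fold change 1.14, SE 0.22, edgeR adjusted p = 0.0224). Nr1d1, which encodes the haem receptor REV-ERBα, had 111 and 105 CPM in MF and 151 and 215 CPM in HF (0.76, SE 0.14, edgeR adjusted p = 0.00896). In both genes the HF sections lay above the MF sections, but the adjusted p-values in edgeR were 0.166 and 0.0807 for Per2 without MF replicate 1 or 2, and 0.0534 and 0.171 for Nr1d1 without MF replicate 1 or HF replicate 2. Of 14 clock genes tested these 2 were called, where 0.113% of all features were called higher, 10 had a log2 fold change above 0, where 49.7% of all features did, and the median log2 fold change was 0.14. Per1, which also responds to activity, had 52.4 and 53.2 CPM in MF and 85.9 and 76.4 CPM in HF (0.62, edgeR adjusted p = 0.177), while Clock and Arntl, the activators of the loop, had log2 fold changes of -0.05 and -0.15.

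The remaining genes called higher were Ptgds and Tshz2. Ptgds, the prostaglandin D synthase of the meninges and choroid plexus, had 68.5 and 57.7 CPM in MF and 133 and 103 CPM in HF (log2 fold change 0.85, edgeR adjusted p = 0.0065, or 0.0539 without MF replicate 2). In HF replicate 1 a single layer 4 spot reached 58.7 Ptgds UMIs per 10000, and the 13 highest spots of that section held 49.4% of its Ptgds UMIs. In the spots with at least 2 layer 4 neighbours the log2 fold change was 0.67 (edgeR adjusted p = 0.0875). After thinning to 5000 UMIs per spot it was 0.01. That setting dropped spots under 5000 UMIs and chose the 130 spots anew, so depth and spots changed together. Of 6 tested genes of the layer 1 and meninges list, Ptgds among them, 3 were higher and 3 lower in HF. Their median log2 fold change was -0.16, and 49.7% of all features were above 0. Tshz2, a zinc finger factor of layer 5 neurons, had 35.5 and 31.5 CPM in MF and 52.4 and 87.4 CPM in HF (1.05, SE 0.20, edgeR adjusted p = 0.0128). Its UMIs were concentrated too, with 41.5%, 64.3%, 70.3% and 66.9% of them in 13 of the 130 spots. Without HF replicate 2 the log2 fold change of Tshz2 was 0.61 (edgeR adjusted p = 0.446), and in the spots with at least 2 layer 4 neighbours 0.87 (edgeR adjusted p = 0.260).

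The other layer 5 genes leaned the same way as Tshz2. All 7 layer 5 genes tested had a log2 fold change above 0, where 49.7% of all features did, with a median of 0.65. The list summed to 215 and 193 CPM in MF and 278 and 315 CPM in HF. Of the 7, 1 gene, Tshz2, was called, where 0.113% of all features were called higher. In the spots chosen for layer 5 itself the median over these genes was 0.13, and in the layer 4 spots with at least 2 layer 4 neighbours it was 0.19. Over the 130 spots per section but without HF replicate 2 it was 0.35. Fezf2 had 22.4 and 17.2 CPM in MF and 28.6 and 37.9 CPM in HF (edgeR adjusted p = 0.536). The number of scattered spots was higher in HF replicate 1 (53) than in the other sections (11 to 32), and its part in the layer 5 values was not tested.

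The genes called lower in the HF layer 4 spots were Pmch, Hcrt, Btaf1 and Apod. Pmch, the precursor of melanin-concentrating hormone, which is made by neurons of the lateral hypothalamus, had 117 and 101 CPM in MF and 41.7 and 0 CPM in HF (log2 fold change -2.53, SE 0.38, edgeR adjusted p = 0.00125). It stayed called whichever section was left out, with a log2 fold change of -1.42 without HF replicate 2, while without HF replicate 1 the only HF section left had 0 UMIs. The counts were 430, 135 and 51 UMIs and 0 UMIs in HF replicate 2, where 0 allows up to 2.05 CPM. The level in the layer 4 spots followed that of the other spots of the same section, which was 713, 510.0, 331 and 0.731 CPM in MF replicates 1 and 2 and HF replicates 1 and 2. Hcrt, the precursor of orexin from the same region, had 34 and 10 UMIs in MF and 2 and 0 UMIs in HF (edgeR adjusted p = 0.0378, or 0.0629 and 0.465 without MF replicate 2 or HF replicate 2), a ratio of 0.0845 with an exact 95% interval from 0.00993 to 0.324 that covers counting error only. Hcrt passed the filter on low counts through the MF sections alone, so its call and p-value are not read as support for a difference. In the other spots Hcrt had 79.3, 83.2, 66.0 and 0.244 CPM. HF replicate 2 thus held almost no RNA of Pmch and Hcrt anywhere in the section, and the part of this in their calls in layer 4 spots was not tested. Other hypothalamic peptide genes went the other way. Without the filter on low counts, Oxt and Avp were called higher in HF (log2 fold changes 6.53 and 4.42). Whether the sections were cut at different levels of the brain was not tested.

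Btaf1, a subunit that removes TBP from DNA, had 75.9 and 80.2 CPM in MF and 45.0 and 42.7 CPM in HF (log2 fold change -0.82, SE 0.17, edgeR adjusted p = 0.0283). Its section values were close together within each diet and did not overlap, where 17.8% of all features had both HF sections below both MF sections. In the other spots Btaf1 had 71.0 and 70.1 CPM in MF and 37.1 and 37.5 CPM in HF. Btaf1 lies on chromosome 19 of GRCm38 from 36926079 to 37012752 on the + strand. Apod, an apolipoprotein of oligodendrocytes and astrocytes, had 182 and 170 CPM in MF and 127 and 107 CPM in HF (-0.60, SE 0.12, edgeR adjusted p = 0.0335). Both Btaf1 and Apod stayed called without HF replicate 1 and lost the call when any other section was left out, with log2 fold changes between -0.87 and -0.49.

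The listed glial genes leaned to lower values in HF. Of 21 myelin and oligodendrocyte genes tested, 21 had a log2 fold change below 0, where 5335 of the 10603 features tested did. In 13 both HF sections lay below both MF sections, where 17.8% of all features did so. Before adjustment 11 were under 0.05, where 3.19% of all features were in this direction. None was called, where 0.0377% of all features were called lower. The median was -0.31, and it was -0.24 in all spots outside layer 4. The sums show that HF replicate 2 stood apart, with 10559 and 11124 CPM in MF and 10570 and 7245 CPM in HF. Without HF replicate 2 the median was -0.12, and without HF replicate 1 it was -0.56. In the spots with at least 2 layer 4 neighbours Trf, Mobp, Mbp, Mog and Mal were among the genes called lower, with log2 fold changes between -0.87 and -0.52 (edgeR adjusted p from 0.00133 to 0.00523). Over all 130 spots per section Trf, which encodes transferrin, had the lowest adjusted p-value of the list (log2 fold change -0.63, edgeR adjusted p = 0.09997). Of 13 astrocyte genes tested 13 had a log2 fold change below 0 with a median of -0.18, and Mt2, a metallothionein, had 426 and 374 CPM in MF and 337 and 193 CPM in HF (edgeR adjusted p = 0.116, or 0.00523 in the spots with at least 2 layer 4 neighbours).

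Genes that define layer 4 and its synapses gave no calls between the diets. Over all features tested 0.151% were called, so no call in lists of this size says little about the lists. Over the 11 further layer 4 genes tested the median was -0.23 on the log2 scale and none was called. Of the 11, 9 were below 0, where 5335 of the 10603 features tested were. The sums over the list, 1075 and 1003 CPM in MF, overlapped with 1016 and 880.4 CPM in HF. Scnn1a, with 16.9 and 19.5 CPM in MF and 10.6 and 8.95 CPM in HF, had an edgeR adjusted p of 0.615. The 6 genes of the score went through the same test, but their results are not read, since they chose the spots. Rorb and Kcnh5 overlapped between the diets, and Kcnh5 also counts among the potassium channel genes. Genes of excitatory transmission (16 tested), inhibitory receptors (14) and potassium channels (30) had medians of -0.01, -0.01 and 0.06 with no call. Cortical inhibitory neuron genes (12 tested) had a median of 0.06, microglial genes (12) -0.13 and vessel genes (10) -0.03, also with no call. Genes of folate and one-carbon metabolism, the pathway that the diet feeds, had a median of -0.08 over 18 tested with none called. The lowest of them, Mthfd1, a trifunctional enzyme of the folate cycle, had 29.8 and 27.7 CPM in MF and 11.5 and 19.3 CPM in HF (log2 fold change -0.89, edgeR adjusted p = 0.430), with 14 UMIs in HF replicate 1.

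**Figure D5:**
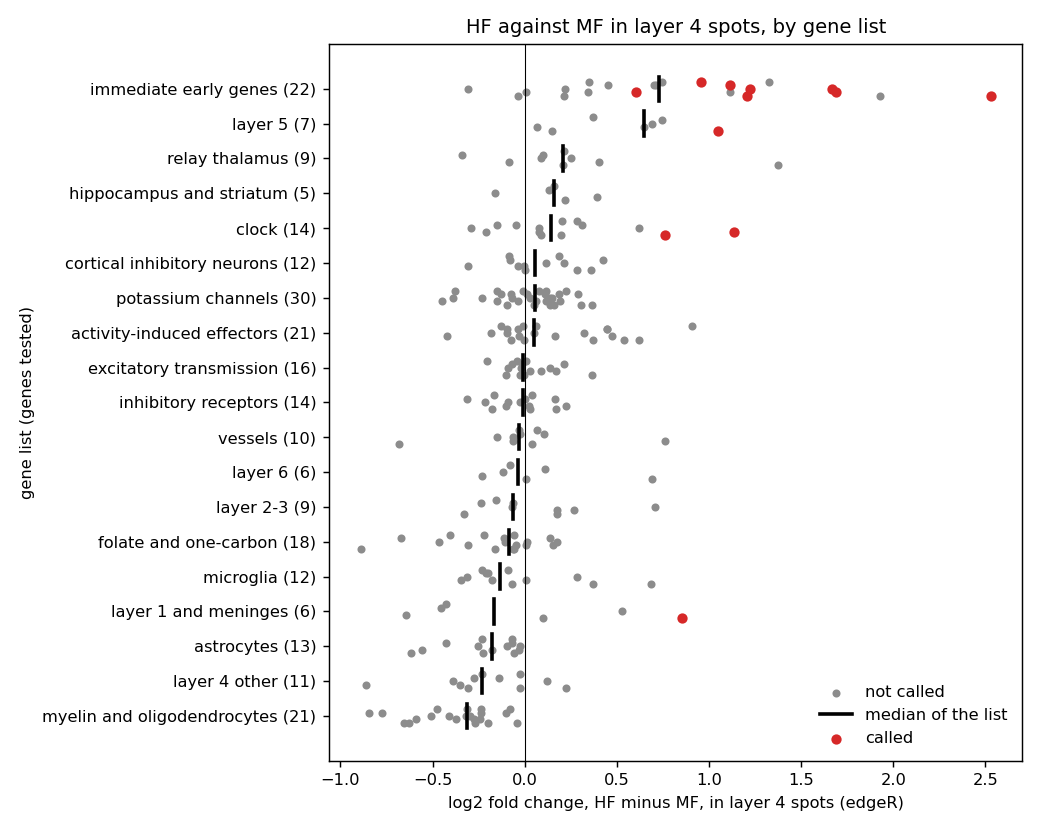
Log2 fold change of HF over MF in layer 4 spots for every gene tested in 19 lists, with called genes in red and the median of each list as a bar. Immediate early genes have the highest median, 0.73, and myelin and oligodendrocyte genes the lowest, -0.31.

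The difference between diets was not shown to be particular to layer 4. For Egr1 the log2 fold change was 2.41 in layer 2-3 spots, 2.37 in layer 5 spots, 2.57 in layer 6 spots and 2.19 in all spots outside layer 4, where edgeR gave an adjusted p of 0.696. For Nr4a3 the values in layers 2-3, 5 and 6 were 1.12, 1.15 and 0.79, and for Arc 1.46, 1.23 and 1.43. The same test called 15 genes in layer 2-3 spots, 7 in layer 5 spots and 2 in layer 6 spots, all with the same sections, and 0 in all spots outside layer 4, where 1016 features were under 0.05 before adjustment. A test of the difference itself, the diet effect in layer 4 minus the mean of those in layers 2-3 and 5 with the section as a block, called 0 of 11334 features in edgeR, with 427 under 0.05 before adjustment. The difference was 0.15 (SE 0.11) for Egr1 and 0.56 (SE 0.26) for Nr4a3 on the log2 scale. The smallest adjusted p-values belonged to Cbln1, a synaptic organiser (difference 1.60, SE 0.33, edgeR adjusted p = 0.308), and to the thalamic gene Prkcd (0.98, edgeR adjusted p = 0.364).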

How the data were processed

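Visium-FFPE sections of 4 brains, 2 from MF and 2 from HF, were analysed. The authors mapped the probe reads to mm10 with Space Ranger and deposited raw UMI counts of 19465 features for every spot under tissue, without normalization, and a table in which, per the file headers, Moran's I is a score of spatial autocorrelation. Gene positions are from GENCODE vM21, where 19451 features matched by Ensembl identifier, and promoters are from RefSeq (GRCm38.p6).

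Spots with at least 500 UMIs and 250 genes were kept, and the layer 4 spots and the spots of layers 2-3, 5 and 6 were chosen in that order, 130 each per section. The layer 5 score used 5 genes. The members, gene lists and tests were chosen with earlier results of these data known. Named genes are the 6 genes of the score, the leading and lowest genes of the rankings (at least 20 CPM), called genes with separate sections, list members and 3 further layer genes, among them Fezf2 and Stard8; some genes are not reported here. Levels are CPM of summed counts, and log2 ratios between spots add 1 CPM.

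Diets were compared on counts summed per section with edgeR 4.0.16 (R 4.3.3), TMM and filterByExpr, and the adjustment covers all features tested. Section totals were 34983708 to 90098381 UMIs, so MF replicate 1 weighs most on low counts. Tested on simulated data, the HF against MF comparison recovered 79.5% of 200 features changed 2-fold and 37% of those changed 1.5-fold, with 3 and 2 false calls. The layer by diet test recovered 60% and 21.5%, with 8 and 1 false calls. Changed features were drawn from those with higher counts, so these shares do not cover the lowest counts. The layers of a section were simulated as independent. The alternatives were DESeq2 1.42.0, no filter, library size alone, spots thinned to 5000 UMIs, 90 or 200 spots, spots with 2 or more member neighbours, a score over 4 genes, a replicate block, each section left out in turn and, for the layer by diet test, layer 6 added.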

Additional observations from a re-analysis of the deposited data

How the results depend on the processing

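The 16 genes called between HF and MF in layer 4 spots became 33 without a filter on low counts, 4 after thinning to 5000 UMIs per spot, 7 with 90 spots per section, 29 in spots with 2 or more member neighbours and 2 with DESeq2 (Egr1 and Nr4a3). Leaving out 1 section gave 12 to 171 calls, the highest number without HF replicate 1. Of the 16, all were shared without the filter, 3 after thinning, 6 with 90 spots, 11 in spots with member neighbours and 14 without HF replicate 1. Library size alone, 200 spots and the score over 4 genes gave 14, 11 and 17 calls. Egr1 was called in 13 of 13 alternatives and Arc, Dusp6 and Nr4a3 in 12 of 13, while Dusp1 was called in 4 of 13. None of the 203 values of called genes under an alternative changed direction, and 71 no longer passed the threshold; the causes were not tested. The 8 immediate early genes called were 3 after thinning, 4 with 90 spots, 5 with 200 spots and 2 with DESeq2, and the median of their list was 0.65 to 1.03. The medians of the relay thalamus list (-0.27 to 0.62), the further layer 4 genes (-0.36 to 0.11) and the activity-induced effectors (-0.02 to 0.20) changed sign. The layer by diet test, with no call, called 2 genes without the filter (Cbln1 and Prkcd) and 1 after thinning (Pik3cb). The log2 ratio of Endou over the other spots, -0.13, was 0.15 after thinning. The replicate number of the labels does not pair the sections (r of -0.00 between the deviations of same-numbered sections); with it as a replicate block, 28 genes were called. Depth limits the low genes: 3 counts are 0.811 CPM in MF replicate 1 and 2.05 to 2.43 CPM in the other sections.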
